A study of Mus musculus with 6 samples.

Results

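The type 2 cytokine locus of the mouse and the genes around it were examined in lung group 2 innate lymphoid cells (ILC2s) of neonates. The 9 members were chosen by symbol, namely the cytokine genes Il4, Il13, Il5 and Il3 and the flanking genes Sept8, Kif3a, Rad50, Slc22a5 and Slc22a4, out of 55394 genes in the files. Of the 9 symbols, 8 matched directly, and Sept8 was found under its current symbol, Septin8, through its identifier. Each member had 1 entry. SMART-seq, a full-length RNA sequencing method for small amounts of RNA, had been run on 6 libraries, each from 1000 sorted cells. In the Abx group, 3 libraries came from pups whose C57BL/6 dams (C57BL/6J in the methods) drank a cocktail of ampicillin, metronidazole, neomycin and vancomycin between gestation days 10 and 14. The Con group held 3 libraries from pups of control dams. All mice were wild type. ILC2s were sorted as live CD45+ cells without lineage markers that carried CD90.2 and CD25. The study used mice of both sexes. The age and sex of the pups behind each library, and whether pups were pooled, are not given in the sources used here. Nothing there says that the libraries of a group came from separate litters, so the p-values measure only the spread between these libraries.

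Il4, Il13 and Il5 form a compact cluster that T helper 2 cells and ILC2s use to drive allergic and anti-helminth responses. Interleukin (IL)-5 matures and recruits eosinophils, IL-13 acts on airway epithelium and smooth muscle, and IL-4 directs B cells towards IgE and T cells towards the type 2 fate. ILC2s are best known as a source of IL-13 and IL-5 within lung tissue. Rad50, which lies between Il13 and Il5, encodes a DNA repair protein and carries in its introns the locus control region of the cluster. The factor GATA3, which binds GATA motifs, is required for these genes in both cell types. Il3 and Csf2, which encode IL-3 and granulocyte-macrophage colony-stimulating factor (GM-CSF), lie further along the same chromosome, and their receptors share a signalling chain with that of IL-5.

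On GRCm38 (GENCODE M21 annotation) the members span chr11:53519257-54267277, which is 748.0 kb. Il4 (ENSMUSG00000000869) lies at chr11:53602982-53618669 on the minus strand, and Kif3a ends 1.0 kb before it. Il13 (ENSMUSG00000020383) follows at chr11:53631324-53634702 on the minus strand. Il5 (ENSMUSG00000036117) lies at chr11:53720794-53725106 on the plus strand, with Rad50 between it and Il13. Il3 (ENSMUSG00000018914) closes the region at chr11:54265303-54267277 on the minus strand. The gap between Slc22a4 and Il3 is 237.2 kb, the widest between neighbouring members.

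The promoters of the 4 cytokine members are shown because these are the genes that were listed at 0 in every library of a group. Each sequence runs 5′ to 3′ on the strand of the gene, from 250 bases before to 50 bases after the start site of RefSeq (GRCm38.p6). Capitals mark a GATA word. The words searched on either strand were AGATAA and its variant AGATAG, and likewise TGATAA and its variant TGATAG. The windows are chr11:53618616-53618915 for Il4, chr11:53634653-53634952 for Il13, chr11:53720544-53720843 for Il5 and chr11:54267230-54267529 for Il3.
Il4: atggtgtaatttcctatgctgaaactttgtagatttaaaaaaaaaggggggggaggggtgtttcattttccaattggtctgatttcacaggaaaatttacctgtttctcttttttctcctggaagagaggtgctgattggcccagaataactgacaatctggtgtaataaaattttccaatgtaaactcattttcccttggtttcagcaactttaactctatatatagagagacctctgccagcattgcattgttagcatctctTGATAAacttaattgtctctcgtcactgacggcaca
Il13: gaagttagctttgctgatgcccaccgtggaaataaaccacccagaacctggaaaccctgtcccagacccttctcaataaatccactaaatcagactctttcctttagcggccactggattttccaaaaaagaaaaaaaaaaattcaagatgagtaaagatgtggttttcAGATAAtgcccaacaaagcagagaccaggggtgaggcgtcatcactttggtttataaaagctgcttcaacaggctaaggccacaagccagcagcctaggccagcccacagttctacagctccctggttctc
Il5: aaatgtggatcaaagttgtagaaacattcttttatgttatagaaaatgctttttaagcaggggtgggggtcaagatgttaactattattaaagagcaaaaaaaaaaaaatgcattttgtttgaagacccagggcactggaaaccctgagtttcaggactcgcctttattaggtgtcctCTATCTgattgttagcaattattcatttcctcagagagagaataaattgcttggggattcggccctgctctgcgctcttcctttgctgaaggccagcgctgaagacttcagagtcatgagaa
Il3: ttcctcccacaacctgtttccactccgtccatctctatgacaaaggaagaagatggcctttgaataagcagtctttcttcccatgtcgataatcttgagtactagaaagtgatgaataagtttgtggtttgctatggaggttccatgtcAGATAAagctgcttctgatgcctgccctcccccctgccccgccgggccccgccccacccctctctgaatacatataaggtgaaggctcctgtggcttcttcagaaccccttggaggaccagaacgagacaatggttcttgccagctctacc

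Each of these 4 windows held 1 GATA word. In Il13 it began 81 bases before the start site and in Il3 101 bases before it. In Il5 the word was on the opposite strand and read CTATCT, 72 bases before the start site. In Il4 it lay 14 bases after the start. The windows of Kif3a, Sept8, Slc22a5 and Slc22a4 held 0 such words, and the promoter of Rad50 was not analysed here. The window of Csf2, a gene found in every library, also held 1 GATA word (AGATAA, 247 bases before the RefSeq start) and 3 matches to GGAAA. In the windows as taken, the GATA word and GGAAA were thus not particular to the genes listed at 0. The RefSeq start of Csf2 lies 232 bases before the one in GENCODE. Its window therefore ends before the GENCODE start and may miss the promoter there. The RefSeq start of Sept8, the nearer of 2 entries, lies 479 bases from its GENCODE start. The window of Sept8 may also miss the promoter of that start. Among all 32851 promoter windows of the same length, 29.8% held at least 1 GATA word. The G and C content of the windows was 38.0% in Il4, 40.0% in Il5, 46.0% in Il13 and 50.7% in Il3, against 59.7% to 72.7% in the 4 flanking genes with a window. In Csf2 it was 56.7%, between these ranges. GGAAA, the core letters bound by NFAT factors, occurred 5 times in Il4, 4 times in Il13, 2 times in Il5 and 1 time in Il3, counting both strands, and was present in 61.3% of all windows. These are matches of letters and were not tested for binding.

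Levels are given as fragments per kilobase of exon, scaled to the mapped reads of the library (FPKM), and the values of a group follow the order of its libraries 1, 2 and 3. Xist, the RNA that coats the inactive X, stood at 3.78, 4.38 and 5.09 FPKM in Con and listed at 0 in all Abx libraries. Y-linked Eif2s3y was at 0.03, 0.58 and 0.86 FPKM in Con against 22.82, 11.85 and 24.37 FPKM in Abx. For the members, antibiotic exposure and pup sex therefore cannot be told apart. The total FPKM per library was 420941 to 489262, and 7074 to 9203 genes reached 1 FPKM, with 8574 to 9203 in Con and 7074 to 8193 in Abx. Read numbers were not recovered from the values, so the depth of each library is unknown and no counting error is given.

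Il4, Il5 and Il13 were listed at 0 in all 3 Con libraries and had values in Abx libraries, while Rad50 and Sept8, which flank them, were found in every library. Il4 was at 3.16, 2.57 and 5.46 FPKM in Abx. The 2 groups of libraries did not overlap for Il4. Il13 was listed at 0 in Abx library 1 and stood at 10.82 and 10.14 FPKM in Abx libraries 2 and 3. Il5 was likewise listed at 0 in Abx library 1, with 57.72 and 24.46 FPKM in the other two. Thus Il13 and Il5 were found in the same 2 libraries, and Abx library 1 was listed at 0 for both, as the Con libraries were. In such bulk libraries fewer cells of a type and less RNA per cell cannot be told apart.

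Il3 showed the opposite arrangement. It was listed at 0 in Con library 1 and in all 3 Abx libraries, and stood at 16.02 and 18.02 FPKM in Con libraries 2 and 3. Il3 and Il4 were above 0 together in 0 of the 6 libraries, and Con library 1 had neither. At 1 FPKM or more, 4 of the 9 members were found in each Con library and in Abx library 1, and 6 in Abx libraries 2 and 3.

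**Figure D1:**
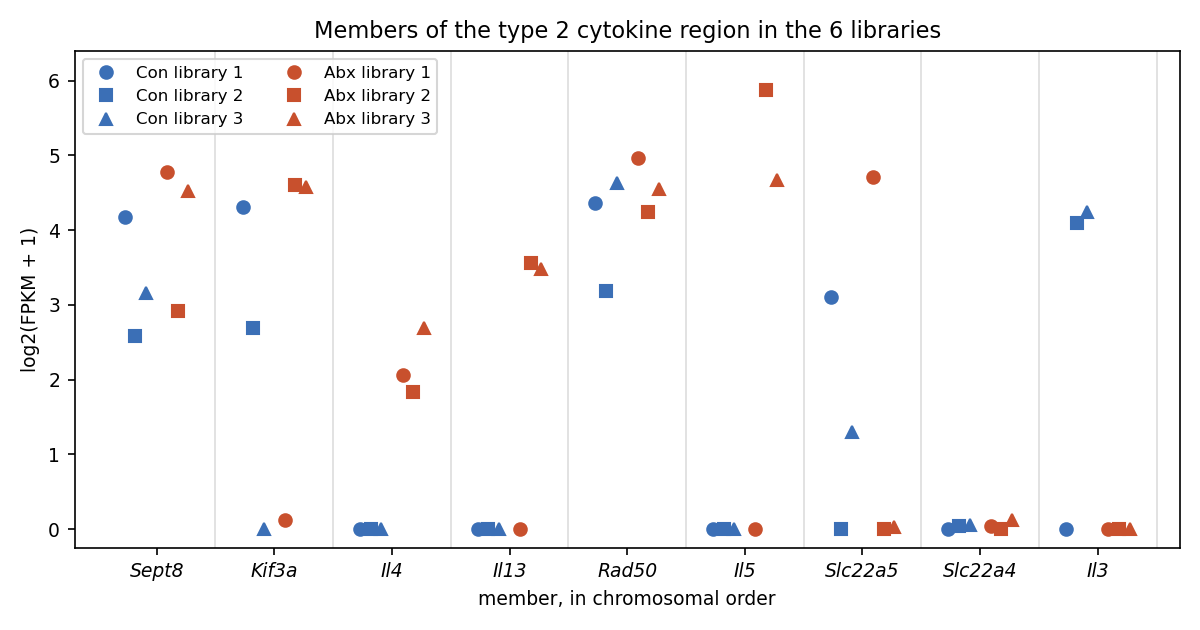
Level of each of the 9 members in the 6 libraries, in chromosomal order along the x axis, with log2(FPKM + 1) on the y axis, where each symbol is 1 library (blue, Con; red, Abx). Il4, Il13 and Il5 sit at 0 in all 3 Con libraries, Il3 sits at 0 in all 3 Abx libraries, and Sept8 and Rad50 are above 0 in all 6.

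The label of the cells was checked with marker genes. Of 13 ILC2 markers, 12 reached 1 FPKM in every library, Il1rl1 being the exception. The summed level of the 13 was 2857 to 3262 FPKM in Con and 2165 to 2747 FPKM in Abx. Of the 12 ILC2 markers tested as below, 6 were higher in Abx and 6 lower. The groups did not overlap for Areg, Arg1 and Icos, with Abx lower, or for Ptprc, with Abx higher. Areg had a mean of 740 FPKM in Con and 289 FPKM in Abx, and Id2 one of 880 and 1137 FPKM. The summed level of 12 T cell markers was 1238 to 1423 FPKM in Con and 2578 to 2904 FPKM in Abx, and 0 of them were at 0 in all 6 libraries. Trbc2, the largest part of the sum, was at 898.16, 873.66 and 957.83 FPKM in Con against 1639.49, 1803.45 and 1731.19 FPKM in Abx. Cd3d was at 8.32, 6.10 and 4.46 FPKM in Con against 63.81, 37.15 and 107.99 FPKM in Abx. Cd4 was listed at 0 in all but Abx library 2 (7.46 FPKM). Of the 9 T cell markers tested as below, 8 were higher in Abx and 1, Trac, was lower (log2 difference -0.19). For 5 of them the groups did not overlap, with Abx higher, against 8.49% of all genes tested. Cd8a exceeded 0.04 FPKM only in Con library 1 (3.25 FPKM). T cells can transcribe Il4, Il5 and Il13, so the higher sum of T cell markers stands beside the Abx values of these genes. In Abx library 1 the sum was 2578 FPKM and Il4 stood at 3.16 FPKM, while Il13 and Il5 were listed at 0. The part of T cells in the result was not tested. The lineage antibodies of the sort were against CD3e, CD4, CD5, CD8a and TCR-beta of T cells, and against B220, Gr1, CD11b, CD11c, Ter119 and an NK cell antigen.

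The summed level of 9 B cell markers was 542 to 700 FPKM in Con and 1178 to 1428 FPKM in Abx, most of it from Ighm, Igkc and Cd74. Of the 7 B cell markers tested as below, 6 were higher in Abx and 1, Cd79b, was lower. Cd79b was at 69.46, 116.78 and 69.78 FPKM in Con against 56.41, 31.01 and 57.43 FPKM in Abx. Pax5 did not exceed 2.33 FPKM and Ebf1 did not exceed 0.09 FPKM. Mast cells and basophils transcribe Il4, Il13 and Il3, and the sum of their 10 markers was 432 to 577 FPKM in Con and 194 to 560 FPKM in Abx. Mcpt8, a basophil protease, was at 26.32, 36.91 and 21.78 FPKM in Con against 8.41, 10.90 and 1.56 FPKM in Abx. Of the 6 markers of this list tested as below, 5 were lower in Abx, Mcpt8 among them, and 1, Gata2, was higher. Over all 8718 genes tested, 4097 were higher in Abx and 4621 lower. Kit passed the filter of that test only through its Con libraries, so the count is a description. Gata2 stood at 0.07, 0 and 7.79 FPKM in Con against 0.39, 18.59 and 245.34 FPKM in Abx. Its value in Abx library 3 was thus a large part of the highest Abx sum. Of the others, Fcer1a was above 0 only in Abx library 2, at 16.19 FPKM, while Ms4a2, Tpsb2 and Cma1 were above 0 only in Con libraries. The part of these cells in the values of Il3 was not tested. The sum of 6 NK cell markers was 0 to 21.7 FPKM in Con and 215 to 224 FPKM in Abx. The Abx sum came from Gzma alone, at 223.6, 218.44 and 215.41 FPKM, while Ncr1 was above 0 only in Con library 1 (7.9 FPKM) and Klrb1c, Prf1 and Klra8 were at 0 throughout. The sum of 7 myeloid markers was 121 to 364 FPKM in Con and 176 to 384 FPKM in Abx. That of 5 eosinophil markers did not exceed 0.88 FPKM, with Prg2, Epx and Ear6 at 0.

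Genes were tested on log2(FPKM + 1) with limma where they reached 1 FPKM in at least 3 libraries, and calls required the groups to differ over 2-fold with adjusted p below 0.05. Of the 9 members, 5 passed this filter (Sept8, Kif3a, Il4, Rad50 and Slc22a5), and 0 of the 5 were called. Over all 8718 genes tested, 0.0574% were called. At an unadjusted p under 0.05, 1 of the 5 members (Il4) was higher in Abx, against 4.74% of all genes tested, and 0 were lower, against 6.25%. The median Abx minus Con difference of these 5 was 0.76 on the log2 scale, against -0.06 over all genes tested. Il4 entered the fit only through its Abx libraries.

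For Il4 the fitted difference was 2.19 (SE 0.47, limma adjusted p = 0.105). Its unadjusted limma p was 0.00176, and the exact two-sided permutation p was 0.1, the smallest that 3 libraries against 3 can give. Groups that do not overlap, with Abx higher, were seen in 8.49% of all genes tested. Il4 did not pass the threshold for a call. Il13 (difference 2.35, exact permutation p = 0.4) and Il5 (difference 3.52, exact permutation p = 0.4) were under the filter. For Il3 the difference was -2.78 and the exact permutation p was 0.4. As 1 group was listed at 0 for each of these 4 genes, the differences depend on the pseudocount of 1 and are not folds.

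A value of 0 was common among genes of these levels. Protein-coding genes were grouped by their highest FPKM over the 6 libraries. Of 2078 genes whose highest value was from 10 to 20 FPKM, the range that holds Il13 and Il3, 34.0% were listed at 0 in at least 1 library. In 23.2% a 0 stood beside a value of at least 10 FPKM within the same group. In this range 2.65% were at 0 in all Con libraries, as Il13 was, and 1.2% in all Abx libraries, as Il3 was. Of genes from 5 to 10 FPKM, where Il4 falls, 50.5% had a 0 and 2.82% were at 0 in all Con libraries. From 20 to 60 FPKM, where Il5 falls, 16.9% had a 0 and 0.64% were at 0 in all Con libraries. The share with any 0 was 0.7% at 200 FPKM and over. Of 128 genes for ribosomal proteins, proteasome subunits and RNA polymerase II subunits, 6 had a 0, and 5 of the 6 (Rpl3l, Psma8, Rpl39l, Rpl10l and Psmb11) are paralogues restricted to certain tissues. The other was Polr2h. This gene, a subunit of the RNA polymerases that every cell uses, stood at 71.34 FPKM in Abx library 2 and listed at 0 in Abx library 3, so a 0 here is not taken as absence of the transcript.

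**Figure D2:**
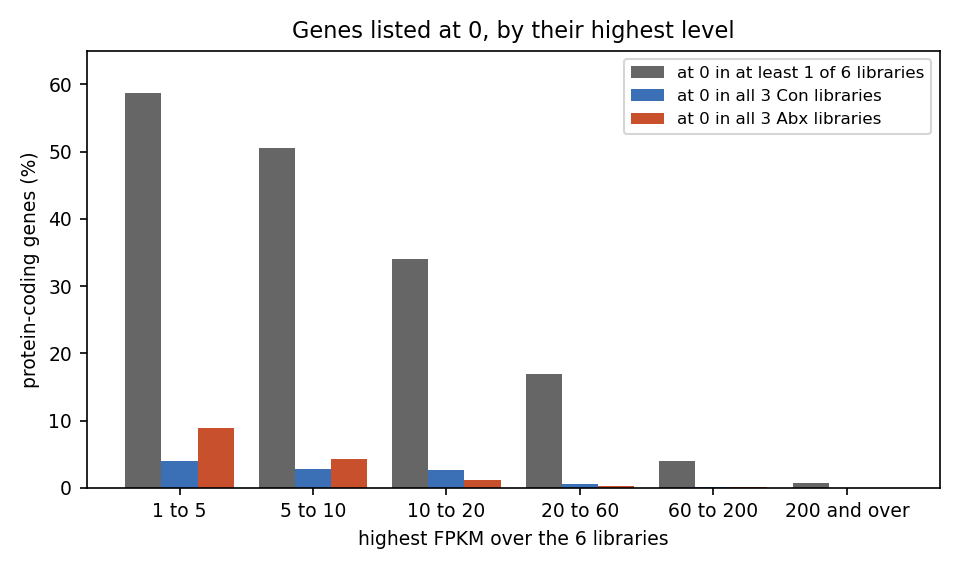
Share of protein-coding genes listed at 0 (y axis, percent) by the highest FPKM of the gene over the 6 libraries (x axis), for a 0 in at least 1 library (grey), in all 3 Con libraries (blue) and in all 3 Abx libraries (red). A 0 in at least 1 library falls from 58.7% of genes at 1 to 5 FPKM to 0.7% at 200 FPKM and over.

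The pattern of the cytokine members was then counted over all 55394 entries, many of them never above 0. As the pattern was read from the members' own values, these counts are a description. In all, 48 (0.0867%) were at 0 in every Con library and reached 1 FPKM in at least 2 Abx libraries, and 3 of them were members, namely Il4, Il5 and Il13. The reverse was seen in 122 genes (0.22%), among them Il3. With the stricter demand of 1 FPKM in all 3 Abx libraries, 4 genes (0.00722%) remained, which were Il4, Tcf7, H2-Ob and Tcrg-V4. The reverse of this stricter demand was met by 17 genes (0.0307%), none of them a member. Tcf7, H2-Ob and Tcrg-V4 were named after their values were seen. Tcf7, which encodes the transcription factor TCF-1 of T cells and innate lymphoid progenitors, was at 29.43, 19.44 and 28.63 FPKM across the Abx libraries. H2-Ob encodes a chain of a modulator of major histocompatibility complex class II loading and was at 13.36, 4.34 and 5.18 FPKM. Tcrg-V4, a variable segment of the T cell receptor gamma locus, was at 48.92, 28.14 and 16.83 FPKM.

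Sept8 (ENSMUSG00000018398, chr11:53519257-53549565, plus strand) encodes a septin, a GTP-binding protein of the cytoskeleton. It was at 17.11, 4.98 and 7.94 FPKM in Con libraries against 26.42, 6.53 and 21.96 FPKM across the Abx libraries. The groups overlapped, with a difference of 0.76 (SE 0.72, limma adjusted p = 0.761).

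Rad50 (ENSMUSG00000020380, chr11:53649519-53707319, minus strand) was at 19.65, 8.08 and 23.75 FPKM in Con against 30.34, 17.93 and 22.37 FPKM in Abx. The mean was 17.2 ± 8.13 FPKM over the Con libraries and 23.5 ± 6.29 FPKM over the Abx libraries (SD, n = 3). Sept8 and Rad50 were the 2 members above 1 FPKM in all 6 libraries. The Rad50 difference of 0.53 (SE 0.52, limma adjusted p = 0.776) was about the size of its error. Rad50 was thus found in every Con library, while Il13 and Il5 on both sides of it were listed at 0 there.

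Kif3a (ENSMUSG00000018395, chr11:53567379-53601967, plus strand) encodes a motor subunit of kinesin-2, which serves transport in cilia. It stood at 18.75 and 5.48 FPKM for Con libraries 1 and 2 and was listed at 0 in Con library 3. In Abx it was at 0.09 FPKM in library 1 and at 23.32 and 22.97 FPKM in libraries 2 and 3. Thus Kif3a, which directly neighbours Il4, was near or at 0 in 1 library of each group, and its difference of 0.77 had an SE of 1.55 (limma adjusted p = 0.897).

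Slc22a5 (ENSMUSG00000018900, chr11:53864542-53891660, minus strand), the carnitine transporter, also varied within both groups. It was at 7.63, 0 and 1.46 FPKM in Con against 25.14, 0 and 0.02 FPKM in Abx (difference 0.11, SE 1.41, limma adjusted p = 0.986). Slc22a4 (ENSMUSG00000020334, chr11:53983123-54028090, minus strand), the related ergothioneine transporter, did not exceed 0.09 FPKM in any library. Its difference was 0.02 with an exact permutation p of 0.9. Among the 5 flanking members, 0 in at least 1 library was therefore found in Kif3a, Slc22a5 and Slc22a4, and only Sept8 and Rad50 were above 0 in all 6.

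Between the outermost members the annotation lists 30 genes, all present in the files. Of the 21 that are not members, 13 were above 0 in some library and 9 reached 1 FPKM. Of these, 5 passed the filter for the test and 0 were called, against 0.0574% of all genes tested. At an unadjusted p under 0.05, 2 were lower in Abx (Csf2 and Gm12223) against 6.25% of all genes tested, and 0 were higher. These 2 genes overlap by 2068 bases, where their reads cannot be told apart, so they may not be separate results. The median difference of the 5 was -0.60.

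Csf2 (ENSMUSG00000018916, chr11:54247271-54249667, minus strand) was by far the most abundant transcript of the region. It was at 3512.31, 3241.76 and 4259.33 FPKM in Con libraries against 1344.44, 2071.85 and 1400.53 FPKM across the Abx libraries. This made up 0.30% to 1.01% of the total FPKM of a library. Every Abx library was below every Con library, and the means were 3671 ± 527 FPKM for Con and 1606 ± 405 FPKM for Abx (SD, n = 3). The difference was -1.21 (SE 0.22, unadjusted limma p = 0.000646, limma adjusted p = 0.0911, exact permutation p = 0.1) and did not pass the threshold. Groups that do not overlap, with Abx lower, were seen in 8.73% of all genes tested. GM-CSF, the product of Csf2, supports myeloid cells of the lung.

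Gm12223, an antisense gene that overlaps Csf2 by 2068 bases, was at 6.96, 5.21 and 7.42 FPKM in Con against 0.81, 0.99 and 1.72 FPKM in Abx. Its difference was -1.80 (SE 0.65, limma adjusted p = 0.324). The library kit does not mark strand, so reads of Csf2 and Gm12223 cannot be told apart where they overlap. The same holds for Il5 and the antisense gene Gm12214, whose 666 bases all lie within the span of Il5. Gm12214 was at 2.84, 8.72 and 0 FPKM in Con against 0, 9.75 and 0 FPKM in Abx. It thus had values in 2 Con libraries in which Il5 was listed at 0. Whether those values hold reads of Il5 was not tested.

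Irf1, an interferon-responsive transcription factor between Il5 and Slc22a5, was found in all 6 libraries. It was at 28.59, 6.77 and 10.73 FPKM in Con against 15.84, 29.67 and 22.57 FPKM in Abx (difference 0.72, SE 0.61, limma adjusted p = 0.732). P4ha2, a subunit of the enzyme that hydroxylates collagen prolines, was at 2.27, 0.01 and 6.17 FPKM in Con against 8.98, 0 and 7.27 FPKM in Abx (difference 0.60, limma adjusted p = 0.89). It split within each group, much as Kif3a and Slc22a5 did. Pdlim4, a cytoskeletal adaptor, reached 1 FPKM in Con library 2 (4.37 FPKM) and in Abx library 2 (8.96 FPKM).

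The remaining genes of the region were low. Gm12216, annotated as protein-coding, was at 2.64, 0.5 and 0.92 FPKM in Con and listed at 0 in all 3 Abx libraries (exact permutation p = 0.1, the smallest possible). Gm12213, a processed pseudogene, had 8.45 FPKM in Con library 3 and 0 elsewhere. Gm17334, a gene annotated as protein-coding that overlaps Irf1 by 907 bases on the other strand, had its highest value, 3.35 FPKM, in Abx library 1. Along the chromosome, differences above 2 on the log2 scale lay at Il4, Il13 and Il5, and those below -1 at Gm12213, Gm12216, Csf2, Gm12223 and Il3, and 0 of these genes were called.

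**Figure D3:**
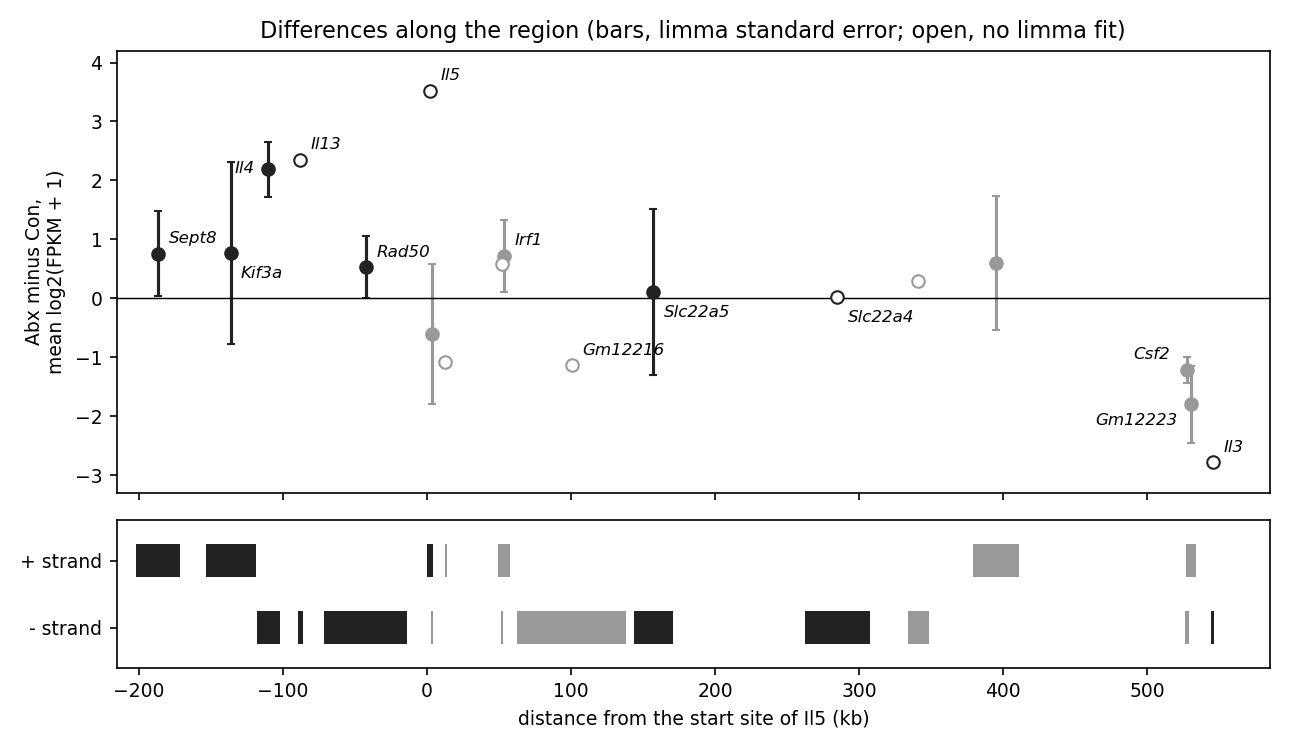
Abx minus Con difference in mean log2(FPKM + 1) (y axis, upper panel) by distance of the gene's midpoint from the start site of Il5 in kb (x axis), with the extent and strand of each gene below (black, members; grey, other genes that reach 1 FPKM). Bars are limma standard errors, not confidence intervals, and open circles are genes outside the fit. Il4 stands at 2.19, but it was listed at 0 in all Con libraries and entered the fit only through its Abx libraries. Its bar is therefore a description. Csf2 stands at -1.21, and Kif3a and Slc22a5 have errors that cross 0.

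**Figure D4:**
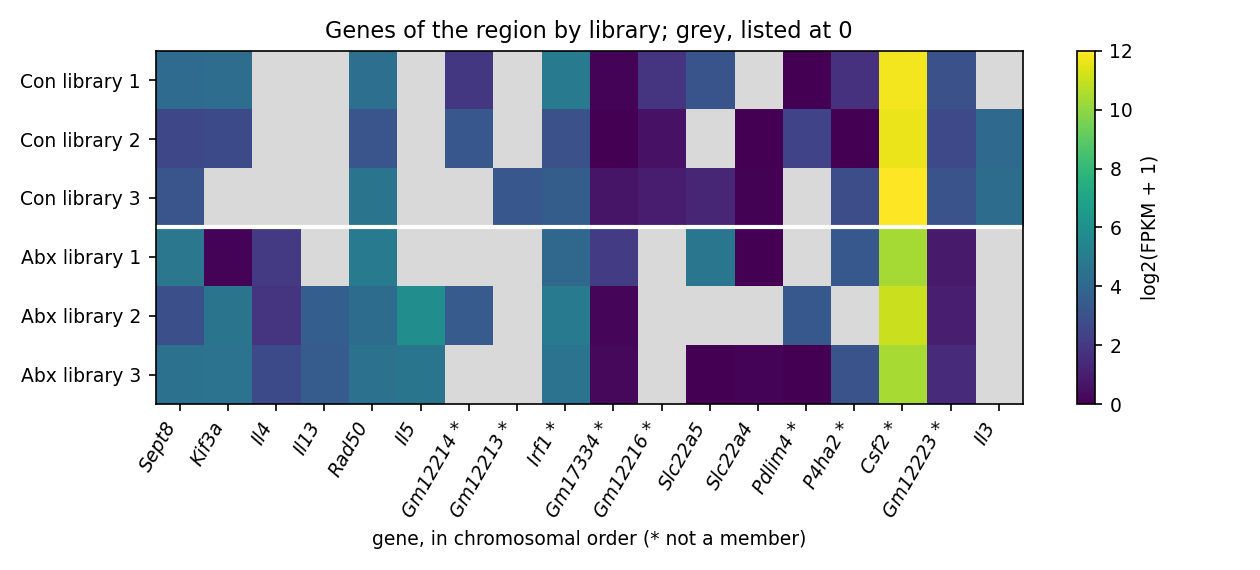
Level of the members and of the 9 other genes that reach 1 FPKM (columns, in chromosomal order) in each library (rows), coloured by log2(FPKM + 1), with grey for a value listed at 0. Csf2 is the brightest column in all 6 libraries, and grey cells occur in members and other genes of both groups.

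For each cytokine member the 3 genes with the most similar levels were taken, by Euclidean distance of log2(FPKM + 1) over the 6 libraries. Nearest to Il4 were Wdr76 (distance 0.84), Rnf168 (1.04) and Nlgn2 (1.12). Wdr76 stood at 5.15, 2.87 and 8.87 FPKM in Abx but at most 0.01 FPKM in Con. For Il13 the nearest were Zfp825 (0.162), Trat1 (0.274) and Slc16a5 (0.3), and Zfp825 was listed at 0 in all Con libraries and in Abx library 1, with 9.63 and 10.56 FPKM in Abx libraries 2 and 3. The nearest to Il5 were further away, at 1.51 (Mylpf), 2.10 (Mrpl50) and 2.12 (Endou). For Il3 they were Igkv4-57 (0.395), Aurka (0.501) and Fbh1 (0.58), and Aurka stood at 17.44 and 12.61 FPKM in Con libraries 2 and 3 but at most 0.03 FPKM elsewhere. Of these 12 genes, 2 lie on chromosome 11, Nlgn2 and Slc16a5, and neither is in the region.

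The receptors for these cytokines were mostly low. Of 9 receptor chains, 3 passed the filter and 0 were called, against 0.0574% of all genes tested. The median difference of the 3 was -1.29, which was that of Il4ra (SE 1.24). Il2rg, the common gamma chain used by IL-4, was at 1237.25, 1084.70 and 1074.05 FPKM in Con against 1076.51, 1150.31 and 1046.74 FPKM in Abx (difference -0.05, limma adjusted p = 0.934). Il4ra, the chain that IL-4 and IL-13 share, was at 17.81, 29.07 and 7.62 FPKM in Con against 0.21, 5.89 and 38.77 FPKM in Abx (limma adjusted p = 0.766). Il3ra was at 2.02, 4.88 and 2.85 FPKM in Con against 0.22, 0.05 and 0 FPKM in Abx. It passed the filter only through its Con libraries, and its groups did not overlap, as in 8.73% of all genes tested with Abx lower. The difference of -1.91 (SE 0.47) had a limma adjusted p of 0.14. Il5ra did not exceed 0.03 FPKM, Il13ra1 did not exceed 0.07 FPKM, and Il13ra2 was listed at 0 in all 6 libraries.

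Of 32 factors known to act at the type 2 cytokine genes, 28 were tested and 0 were called, against 0.0574% of all genes tested. At an unadjusted p under 0.05, 3 were higher (Tcf7, Men1 and Rad21) and 2 were lower (Stat5a and Junb), against 4.74% and 6.25% of all genes tested. Tcf7 and Stat5a, like Il4, passed the filter only through the group in which they were high, so these counts are a description. The median difference was 0.16, with 16 higher and 12 lower. Gata3 was at 76.24, 97.48 and 76.06 FPKM in Con against 95.75, 33.90 and 46.05 FPKM in Abx (difference -0.63, SE 0.41, limma adjusted p = 0.654). Thus Gata3 was present in every Con library in which Il4, Il5 and Il13 were listed at 0. Junb, an AP-1 subunit, was the most abundant factor, at 3178.65, 3771.81 and 3993.94 FPKM in Con against 2936.55, 2014.76 and 1783.42 FPKM in Abx (difference -0.73, SE 0.22, limma adjusted p = 0.226). Jund, another AP-1 subunit, differed by 0.17 (limma adjusted p = 0.869).

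Of 16 signalling genes that switch type 2 cytokines on in ILC2s, 14 were tested and 0 were called, against 0.0574% of all genes tested. Their median was -0.45. At an unadjusted p under 0.05, 1 was lower, near the 6.25% of all genes tested. At the same p 0 were higher. That gene was Icos, a costimulatory receptor of ILC2s and T cells, at 240.5, 288.65 and 286.94 FPKM in Con against 82.41, 114.7 and 120.32 FPKM in Abx (difference -1.37, SE 0.23, limma adjusted p = 0.0911). The groups of Icos did not overlap, as in 8.73% of all genes tested with Abx lower. Tnfrsf18 (difference -0.81, limma adjusted p = 0.627), which encodes the costimulatory receptor GITR, and Nmur1 (difference 0.34, limma adjusted p = 0.797), the neuromedin U receptor, did not pass either. Il1rl1, the IL-33 receptor chain that defines many lung ILC2s, was at 0.06, 0.89 and 2.94 FPKM in Con against 0.03, 0.01 and 0.03 FPKM in Abx. Over the 57 genes of these 3 groups, 45 were tested and their median difference was -0.05.

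**Figure D5:**
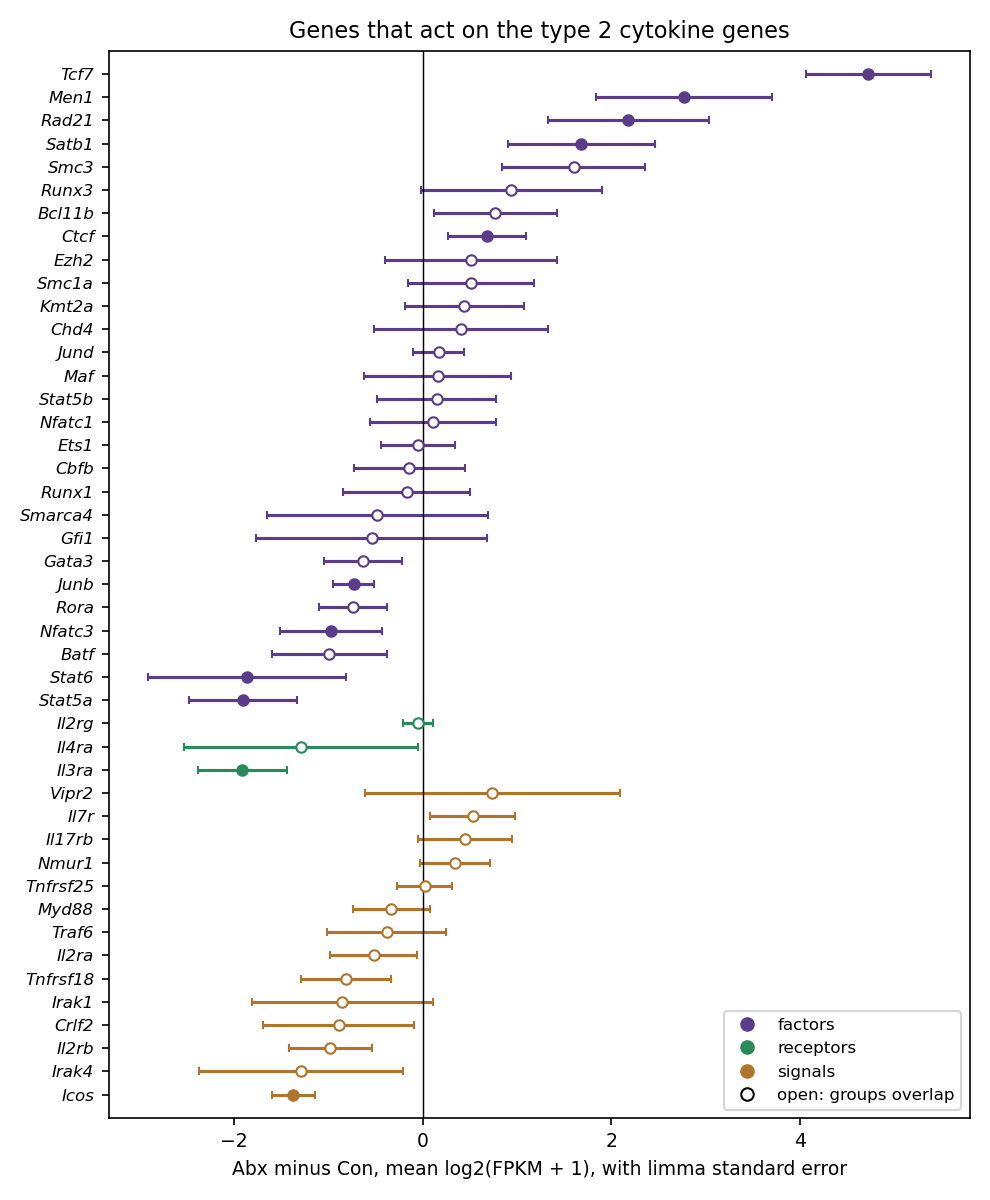
Abx minus Con difference in mean log2(FPKM + 1) with its limma standard error (x axis) for the 45 tested factors, receptors and signalling genes (y axis, by group and size), with filled circles where the groups of libraries do not overlap and open circles where they do. Tcf7 lies furthest to the right at 4.72, and Stat5a, Stat6, Il3ra and Icos are among the genes to the left, with 0 of the 45 called.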

How the data were processed

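RNA of 6 libraries (3 Con, 3 Abx; 1000 lung ILC2s each) was measured by SMART-seq. The authors deposited FPKM per gene, made with Cutadapt, HISAT2, StringTie and, by their methods, a human Ensembl release (96), while the identifiers are of mouse. The submitters' processing notes name Bowtie 0.12.2, mm8 and mm9 without a role. The authors compared groups with DESeq2, which needs counts and was not repeated. Of the identifiers, 55134 are in GENCODE M21 and 260 are not; in 20 entries the symbol belongs to another identifier, and listed genes were taken by identifier. At a tolerance of 0.1 steps, 23.3% to 33.0% of low values lay near a multiple of the best step (20.0% by chance), so reads were not recovered.

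The 8718 genes that reached 1 FPKM in 3 or more of the 6 libraries were fitted on log2(FPKM + 1) with limma 3.58.1 (lmFit, eBayes with trend, R 4.3.3), two-sided, without covariates, with Benjamini-Hochberg adjustment over all genes tested. Calls required a difference of over 2-fold with adjusted p below 0.05. On this scale the change of low genes is understated. Single genes were also compared with exact two-sided permutation tests, whose smallest p is 0.1. The scripts were tested on simulated data. Tables were made with Python 3.11.15, pandas 2.3.3, numpy 2.4.6 and scipy 1.17.1, and figures with matplotlib 3.10.9.

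The members and lists were chosen with earlier results of these data known. Genes named are the members, genes of the region that reach 1 FPKM, the 3 most abundant of each list, those called, the 3 genes nearest to each cytokine member and markers beside them. Tcf7, H2-Ob, Tcrg-V4, Men1, Rad21, Stat5a, Stat6, Polr2h and the paralogues beside it, Xist and Eif2s3y were named after their values were seen. Both groups number their libraries 1 to 3. The correlations of same-numbered libraries' deviations were -0.02, -0.029 and 0.01, so the numbers were not taken as pairs. Alternatives were pseudocounts of 0.1 and 0.01, no filter, a mean of at least 5 FPKM, quantile normalization, median centring, robust variance, a replicate block, detection at 0.1 and 5 FPKM, and leaving out each library.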

Additional observations from a re-analysis of the deposited data

How the results depend on the processing

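No member, other gene of the region or listed factor, receptor or signal was called (0) in any alternative that was run. Over all genes, 5 were called, against 0 with pseudocounts of 0.1 or 0.01, without a filter, with median centring or with a replicate block, 7 with quantile normalization or a mean of at least 5 FPKM, and 0 to 2 with 1 library left out; the cause was not tested. Under the replicate block the difference of Il4 was 2.19 and that of Rad50 0.53, and 0 members were called. Same-numbered libraries did not deviate together (correlations in the account of the processing). The difference of Slc22a5 turned to -0.66 and -1.30 with pseudocounts of 0.1 and 0.01 and to -0.63 and -1.46 without Con library 2 or Abx library 1, that of Kif3a to -0.40 without Con library 3, and that of Slc22a4 to -0.01 without Abx library 3. Leaving out 1 library in turn, the highest differences were 0.93 for Slc22a5 (without Con library 1), 2.26 for Kif3a (without Abx library 1) and 0.05 for Slc22a4 (without Abx library 2). Sept8 ranged from 0.40 to 1.34 and Rad50 from 0.09 to 0.81. Il4 ranged from 1.95 (without Abx library 3) to 8.47. Its limma adjusted p was 0.0864 to 0.635 over the 10 alternatives that kept it in the test, and without any 1 Abx library or with a mean of at least 5 FPKM it fell under the filter. The ranges were 1.74 to 6.69 for Il13, 2.34 to 7.92 for Il5 and -7.15 to -2.04 for Il3, where the largest sizes were those at a pseudocount of 0.01. The exact permutation p of these genes stayed at 0.4 with both pseudocounts and quantile normalization. With median centring it was 0.1 for Il13 and Il5 and 0.3 for Il3. Centring shifts each library by its own amount, so values of 0 no longer tie. The adjusted p of Csf2 ranged from 0.0828 to 0.479 over 14 alternatives. Counting every entry with a member's symbol was not run, as each has 1 entry. With no read numbers, a 0 at these levels has no stated upper limit.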
